A study of Mus musculus with 4 samples.

Results

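The genes described here are 9 regulators of the epithelial-mesenchymal transition (EMT): the zinc finger repressors Snai1 and Snai2, the basic helix-loop-helix factors Twist1 and Twist2, the zinc finger homeobox factors Zeb1 and Zeb2, the paired-type homeobox factor Prrx1, and the chromatin proteins Hmga2 and Hmga1. They were chosen by name, with earlier results of these data known. All non-control probes that carry these names on the array and were read on all 4 arrays were taken. This gave 15 probes for 9 of the 22326 genes with a named probe, with 1 probe for 5 of the members and several for the other 4.

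Total RNA of mouse neural stem cells was measured on single-colour Agilent arrays, 1 array for each of 4 groups, to find genes downstream of the adhesion molecule Ceacam1. All 4 groups lacked p53 (genotype p53-/-), came from E14.5 embryonic brain and were grown in serum-free medium. NSCL61-Ceacam1sh were NSCL61 cells that expressed a short hairpin RNA against Ceacam1, and NSCL61 were the line without it. As background, NSCL61 is a glioma-initiating line derived from p53-null neural stem cells by an activated Ras. NSC-Ceacam1L were neural stem cells that expressed Ceacam1L, and NSC were neural stem cells without it. The protocol shared by the 4 groups describes hygromycin selection of transfected cells, and whether the NSC and NSCL61 cells had received an empty vector is not given in the sources used here. Whether each group was 1 clone or a pool is also not given there. Ceacam1 itself was not analysed here, so the manipulation named by each label was not checked, and each group below is the array that carries that label.

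EMT is the switch by which epithelial cells loosen their junctions and become motile, and Snail, Twist and Zeb proteins are its best known transcription factors. Snail and Zeb proteins bind E-box sequences and repress junction genes such as Cdh1 (E-cadherin), while Twist proteins act as dimers with other basic helix-loop-helix proteins. Neural stem cells are not epithelial in this sense, and there Zeb1 and Zeb2 are known for roles in progenitors and glia, Twist and Snail factors are linked to mesenchymal features of glioma, and Hmga2 is known for supporting the self-renewal of young neural stem cells.

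Each level below is a scaled signal, the background-subtracted signal of a probe divided by the 75th percentile of its array. Probes bind with unlike strength, so a level is set only against the same probe on another array. Differences of 2-fold or more (1.0 on the log2 scale) were counted as higher or lower where the scanner flagged the probe as well above background on the brighter array. A gene was evaluated when its probe had that flag on at least 1 of the 2 arrays. Where the dimmer array lacked it, the fold is given as "at least", the bright value over the higher of the dim probe's own value and the lowest signal well above background there. When the probe's own value is the higher, that fold is the measured ratio, and noise can move it either way. Each ± is the scanner's modelled error of a log2 difference, which covers technical spread within arrays. With 1 array per group no difference has a replicate check and no p-value is given. The 4 arrays lay on 1 slide, and a group cannot be told apart from its place on that slide.

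Between 62.7% and 67.2% of the genes were well above background on each array. Over the 12481 genes seen on all 4 arrays, the log2 signals of NSCL61-Ceacam1sh had Pearson correlations across genes of 0.846 with NSCL61, 0.840 with NSC-Ceacam1L and 0.861 with NSC, whereas the other 3 pairs of arrays had 0.933 to 0.973. The NSCL61-Ceacam1sh array therefore stood apart from the other 3, and it carries the largest member differences below. Of the 9 members, 9 were well above background on the NSCL61-Ceacam1sh array, 7 on NSCL61, 6 on NSC-Ceacam1L and 6 on NSC. 1 of the 15 member probes, the Zeb2 probe A_55_P2119388, was not well above background on any array.

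In NSCL61-Ceacam1sh cells, 7 of the 9 members were at least 2-fold higher than in NSCL61 cells and 0 were lower, where 23.5% of all 15613 evaluated genes were higher and 24.2% were lower (47.7% in either direction). The 7 were Snai1, Snai2, Twist1, Twist2, Prrx1, Hmga2 and Hmga1, and the median log2 difference over the 9 members was 2.64, against 0.01 over all evaluated genes. Zeb1 and the Zeb2 probe that stands for the gene did not reach 2-fold and had negative differences. A second Zeb2 probe was lower by log2 -2.28 ± 0.28, past 2-fold. Fewer members passed 2-fold between NSCL61 and NSC: Twist1 and Twist2 were higher in NSCL61 and Snai2 and Hmga2 were lower. Between NSC-Ceacam1L and NSC, 1 member counted as higher and 2 as lower, and the members seen on both arrays differed by at most 2.29-fold. The first and second of these comparisons share the NSCL61 array, and the NSC array serves both the second and the last, so they are not independent of each other.

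**Figure D1:**
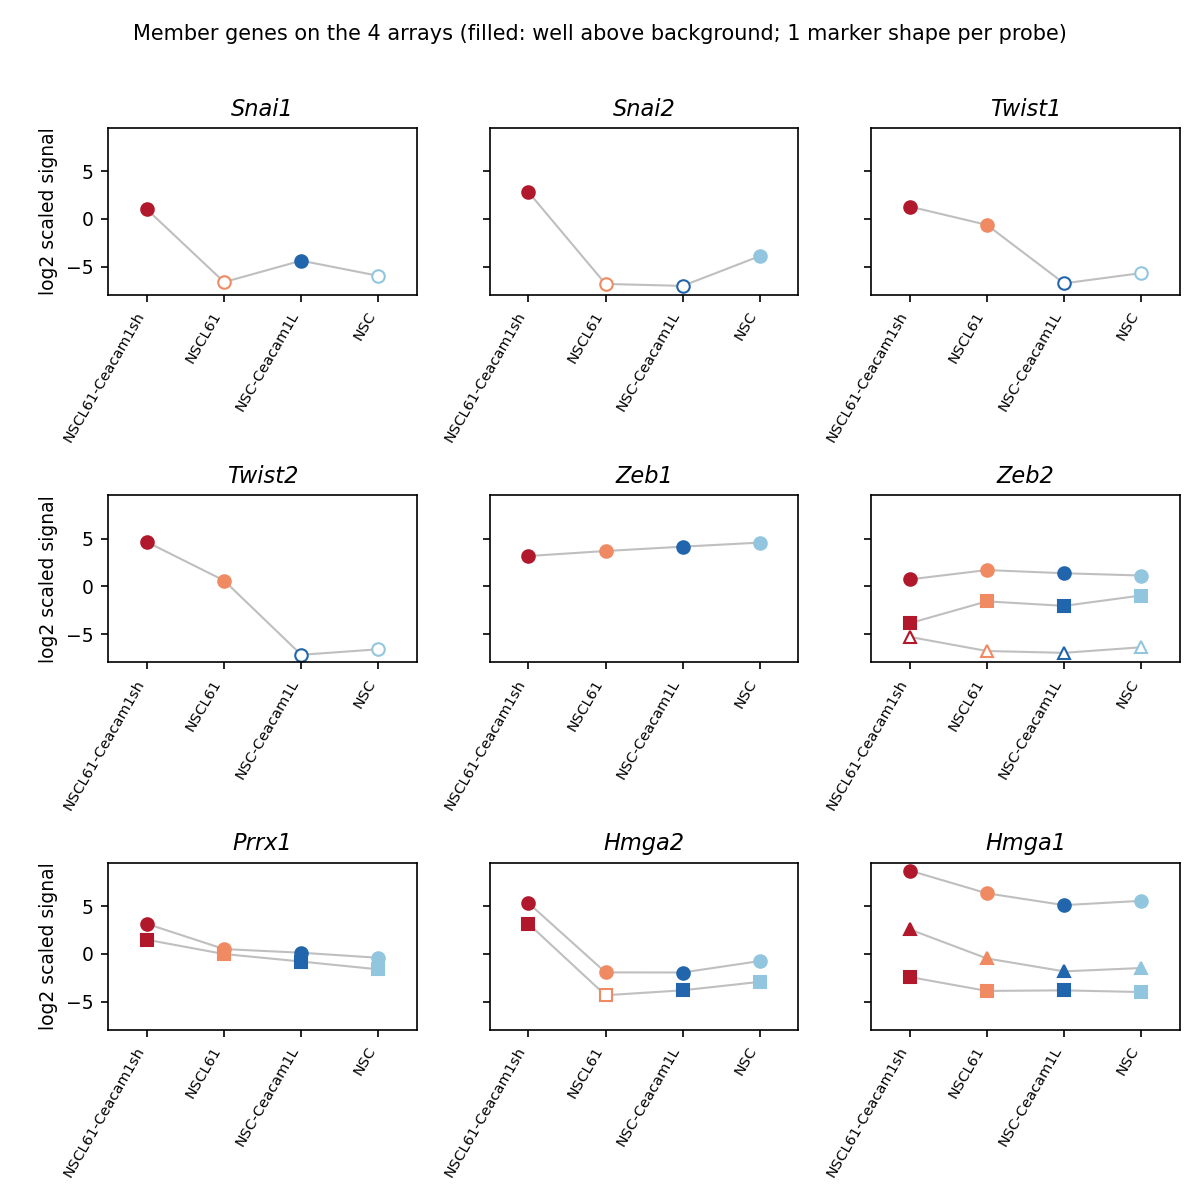
Log2 scaled signal (vertical axis) of each member probe on the 4 arrays, with 1 marker shape per probe, filled where the probe was well above background and open where it was not; lines join the values of a probe and stand for no order in time. Snai1, Snai2, both Hmga2 probes and Prrx1 are highest on the NSCL61-Ceacam1sh array, Twist1 and Twist2 are filled only on the 2 NSCL61 arrays, and Zeb1 and the brightest Zeb2 probe stay within a narrow band.

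Snai1, the zinc finger factor best known for repressing Cdh1, was read by 1 probe (mm9 chr2:167368073-167368132, plus strand). Its scaled signal was 1.99 in NSCL61-Ceacam1sh, 0.0103 in NSCL61, 0.0487 in NSC-Ceacam1L and 0.0162 in NSC. It was well above background in NSCL61-Ceacam1sh and NSC-Ceacam1L and not in NSCL61 or NSC. Snai1 was thus at least 49.9-fold higher in NSCL61-Ceacam1sh than in NSCL61. That bound holds for the processed signal: with the normexp background correction, which adds an offset of 50 to every signal, the log2 difference was 3.74. In NSC-Ceacam1L the measured difference from NSC was 1.59 ± 1.16, and no fold is given, since the NSC-Ceacam1L signal lay below the lowest signal that passed as well above background on the NSC array. With normexp it was 0.08, under 2-fold.

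The Snai1 promoter is shown because it is the only member promoter searched that holds a core E-box. Snail and Zeb proteins are known to bind the E-box with the letters CAGGTG, or CACCTG on the other strand. RefSeq start sites on GRCm38.p6 gave promoter windows for 7 of the 9 members, and in the 250 bases before the start an E-box of these letters on either strand was found in 1 of the 7, Snai1, and in 17.2% of 32851 promoters of all genes. That share counts promoters while the member count is by gene, and Zeb2 had 4 windows and Hmga1 had 2. The motif lies 126 bases before the start and is in capitals in the window (chr2:167537945-167538194, plus strand, 70.0% G or C):
Snai1 promoter: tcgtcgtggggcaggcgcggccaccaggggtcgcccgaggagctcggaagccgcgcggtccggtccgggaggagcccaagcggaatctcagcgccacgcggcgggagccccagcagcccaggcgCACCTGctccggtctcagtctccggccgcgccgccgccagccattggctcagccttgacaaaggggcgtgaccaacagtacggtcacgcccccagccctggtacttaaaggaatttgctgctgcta
The AP-1 motif TGANTCA, searched on both strands for the Fosl1 result below, was found in 6.75% of all promoters and among the members in a Zeb2 promoter. A match describes these letters and says nothing about whether a factor bound there.

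Snai2, the second Snail family repressor and a factor of migrating neural crest, was read by 1 probe (mm9 chr16:14709361-14709420, plus strand). Its scaled signal was 7.04 in NSCL61-Ceacam1sh, 0.00901 in NSCL61, 0.00783 in NSC-Ceacam1L and 0.0677 in NSC. The NSCL61-Ceacam1sh and NSC values were well above background and the other 2 were not, so Snai2 was at least 177-fold higher in NSCL61-Ceacam1sh than in NSCL61. It was at least 1.70-fold lower in NSCL61 than in NSC and at least 1.96-fold lower in NSC-Ceacam1L than in NSC. The measured differences of -2.91 ± 1.48 and -3.11 ± 1.48 put Snai2 past 2-fold in both, while both bounds stay under 2-fold. With normexp they were -0.50 and -0.77, which ends both calls, and the difference between the 2 NSCL61 arrays was 5.52, below the bound above.

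Twist1, which directs mesoderm and cranial mesenchyme, was read by 1 probe (mm9 chr12:34644411-34644470, plus strand). Its scaled signal was 2.45 in NSCL61-Ceacam1sh, 0.650 in NSCL61, 0.00941 in NSC-Ceacam1L and 0.0198 in NSC. The 2 NSCL61 arrays were well above background and the 2 NSC arrays were not. Twist1 was 3.77-fold higher in NSCL61-Ceacam1sh than in NSCL61 (log2 1.92 ± 0.21) and at least 12.5-fold higher in NSCL61 than in NSC. With normexp the second difference was 2.38 on the log2 scale, below this bound and past 2-fold.

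Twist2, the Twist paralog of dermal and other mesenchymal cells, was read by 1 probe (mm9 chr1:93744519-93744577, plus strand). Its scaled signal was 24.9 in NSCL61-Ceacam1sh, 1.53 in NSCL61, 0.00707 in NSC-Ceacam1L and 0.0105 in NSC. Like Twist1, it was seen on the 2 NSCL61 arrays and on neither NSC array. Twist2 was 16.3-fold higher in NSCL61-Ceacam1sh than in NSCL61 (log2 4.03 ± 0.20) and at least 29.5-fold higher in NSCL61 than in NSC. With normexp the second difference was 3.80, again below the bound and past 2-fold. For both Twist genes the NSC-Ceacam1L and NSC arrays were at background, and no fold between them is given.

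Zeb1, a repressor expressed in neural progenitors as well as in mesenchymal cells, was read by 1 probe (mm9 chr18:5774613-5774672, plus strand). Its scaled signal was 9.06 in NSCL61-Ceacam1sh, 13.0 in NSCL61, 17.8 in NSC-Ceacam1L and 24.0 in NSC. All 4 arrays were well above background, and neighbouring values in this order lay 0.43 to 0.52 apart on the log2 scale, each with an error of 0.20. The difference was -0.52 in NSCL61-Ceacam1sh relative to NSCL61, -0.88 in NSCL61 relative to NSC and -0.43 in NSC-Ceacam1L relative to NSC. None of the 3 reached 2-fold.

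Zeb2, a factor of neural crest and of the neuronal and oligodendrocyte lineages, had 3 probes. The brightest, which stands for the gene (mm9 chr2:44842774-44842833, minus strand), had scaled signals of 1.67 in NSCL61-Ceacam1sh, 3.28 in NSCL61, 2.60 in NSC-Ceacam1L and 2.21 in NSC. Its log2 differences were -0.98 ± 0.20 for NSCL61-Ceacam1sh minus NSCL61, just inside 2-fold, 0.57 ± 0.21 for NSCL61 minus NSC and 0.24 ± 0.21 for NSC-Ceacam1L minus NSC. The second probe (mm9 chr2:44840038-44840097, minus strand) had 0.0698 in NSCL61-Ceacam1sh, 0.339 in NSCL61, 0.245 in NSC-Ceacam1L and 0.519 in NSC, with differences of -2.28 ± 0.28, -0.61 ± 0.21 and -1.08 ± 0.21 in the same order. This second probe was thus past 2-fold in the first and the last of these comparisons, and the brightest in none. The 2 probes share their lowest array, NSCL61-Ceacam1sh. They disagree in sign for the other 2 comparisons, so no direction is given for Zeb2 there.

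Prrx1, a homeobox factor of limb and craniofacial mesenchyme, had 2 probes. The brighter (mm9 chr1:165175375-165175434, minus strand) had scaled signals of 8.84 in NSCL61-Ceacam1sh, 1.42 in NSCL61, 1.09 in NSC-Ceacam1L and 0.756 in NSC. The other (mm9 chr1:165185408-165185467, minus strand) had 2.79 in NSCL61-Ceacam1sh, 0.993 in NSCL61, 0.577 in NSC-Ceacam1L and 0.327 in NSC. Both probes put the 4 arrays in the same order, with NSCL61-Ceacam1sh highest and NSC lowest. For NSCL61-Ceacam1sh minus NSCL61 the log2 differences were 2.64 ± 0.20 and 1.49 ± 0.20. For NSCL61 minus NSC they were 0.91 ± 0.21 and 1.60 ± 0.21, and for NSC-Ceacam1L minus NSC 0.53 ± 0.21 and 0.82 ± 0.21, so that the second probe alone passed 2-fold in the first of these and neither did in the second.

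Hmga2, an AT-hook protein that bends DNA and is abundant in early embryos, some stem cells and many tumours, had 2 probes. The brighter (mm9 chr10:119798739-119798798, minus strand) had scaled signals of 40.1 in NSCL61-Ceacam1sh, 0.263 in NSCL61, 0.261 in NSC-Ceacam1L and 0.598 in NSC. All 4 values were well above background, and Hmga2 was 152-fold higher in NSCL61-Ceacam1sh than in NSCL61 (log2 7.25 ± 0.21). It was 2.27-fold lower in NSCL61 than in NSC (log2 -1.18 ± 0.21) and 2.29-fold lower in NSC-Ceacam1L than in NSC (log2 -1.20 ± 0.21). Both fell short of 2-fold with normexp, at -0.90 and -0.96, and the NSC-Ceacam1L difference also did with spike-in scaling, at -0.79. NSCL61 and NSC-Ceacam1L lay 0.01 ± 0.22 apart on the log2 scale, within the scanner error.

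The second Hmga2 probe (mm9 chr10:119800621-119800680, minus strand) had scaled signals of 8.96 in NSCL61-Ceacam1sh, 0.0502 in NSCL61, 0.0717 in NSC-Ceacam1L and 0.133 in NSC, with the NSCL61 value not well above background. It put Hmga2 at least 178-fold higher in NSCL61-Ceacam1sh than in NSCL61 and at least 2.64-fold lower in NSCL61 than in NSC. Both are measured ratios (log2 7.48 ± 0.39 and -1.40 ± 0.42), since the NSCL61 value lay above the lowest signal well above background there. Its difference of -0.88 ± 0.33 for NSC-Ceacam1L minus NSC did not reach 2-fold. A probe named for the pseudogene Hmga2-ps1 had 0.0970 in NSCL61-Ceacam1sh, 0.0628 in NSCL61, 0.0626 in NSC-Ceacam1L and 0.0790 in NSC. No array probe of another name shared a run of 20 bases with a member probe.

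The let-7 microRNAs are the best known repressors of Hmga2, and Lin28 proteins block their maturation. The seed, bases 2 to 8, is shared by 10 mature mouse miRNAs of the let-7 and miR-98 group in the RefSeq table (GRCm38.p6). It is in capitals in 3 of them below, together with the 30 bases of the brighter Hmga2 probe around its match (mm9 chr10:119798740-119798769, minus strand, seed match in capitals):
let-7a-5p: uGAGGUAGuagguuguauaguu
let-7g-5p: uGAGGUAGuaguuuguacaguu
miR-98-5p: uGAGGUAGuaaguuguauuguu
Hmga2 probe window: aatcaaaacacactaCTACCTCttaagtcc
Bases 2 to 11 of let-7a, 10 in a row, can pair with this window. Of the 15 member probes 1 holds such a seed match, as do 204 (0.366%) of all 55681 probes. The brighter Hmga2 probe thus reads a stretch of the transcript that contains a let-7 seed match. The miRNAs themselves were not analysed here.

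The Hmga2 promoter is shown for its run of pyrimidines. In the 250 bases before its start (GRCm38.p6, chr10:120476470-120476719, minus strand), 70.8% of the bases were C or T, a share reached by 0.414% of all promoters, whose median was 50%. The 7 unbroken runs of at least 8 C or T, in capitals, hold 89 bases, which 0.280% of promoters reach:
Hmga2 promoter: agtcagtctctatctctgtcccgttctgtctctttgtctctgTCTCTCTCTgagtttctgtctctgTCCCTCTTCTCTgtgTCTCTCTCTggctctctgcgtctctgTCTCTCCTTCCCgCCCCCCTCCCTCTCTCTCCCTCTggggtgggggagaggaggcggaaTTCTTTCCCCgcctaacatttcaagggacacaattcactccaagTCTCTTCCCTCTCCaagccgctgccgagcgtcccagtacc
The Snai1 window printed above had 49.2% C or T and 0 such runs. The arrays do not measure activity of these windows.

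Hmga1, the paralog of Hmga2 with the same AT-hook design and a wide expression in dividing cells, had 3 probes. The brightest (mm9 chr17:27700543-27700602, plus strand) had scaled signals of 419 in NSCL61-Ceacam1sh, 80.8 in NSCL61, 34.3 in NSC-Ceacam1L and 46.9 in NSC. All values were well above background, and Hmga1 was 5.19-fold higher in NSCL61-Ceacam1sh than in NSCL61 (log2 2.38 ± 0.20). The differences of 0.79 ± 0.20 for NSCL61 minus NSC and -0.45 ± 0.20 for NSC-Ceacam1L minus NSC did not reach 2-fold.

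The other 2 Hmga1 probes also had their highest signal in NSCL61-Ceacam1sh. One (mm9 chr17:27696588-27696647, plus strand) had 5.93 in NSCL61-Ceacam1sh, 0.722 in NSCL61, 0.283 in NSC-Ceacam1L and 0.360 in NSC, and the dimmest (mm9 chr17:27693913-27693973, plus strand) had 0.188, 0.0686, 0.0714 and 0.0633 on the same arrays. For NSCL61-Ceacam1sh minus NSCL61 they gave log2 3.04 ± 0.20 and 1.45 ± 0.27. For NSCL61 minus NSC they gave 1.00 ± 0.21 and 0.12 ± 0.36, so 1 of the 3 Hmga1 probes passed 2-fold there.

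**Figure D2:**
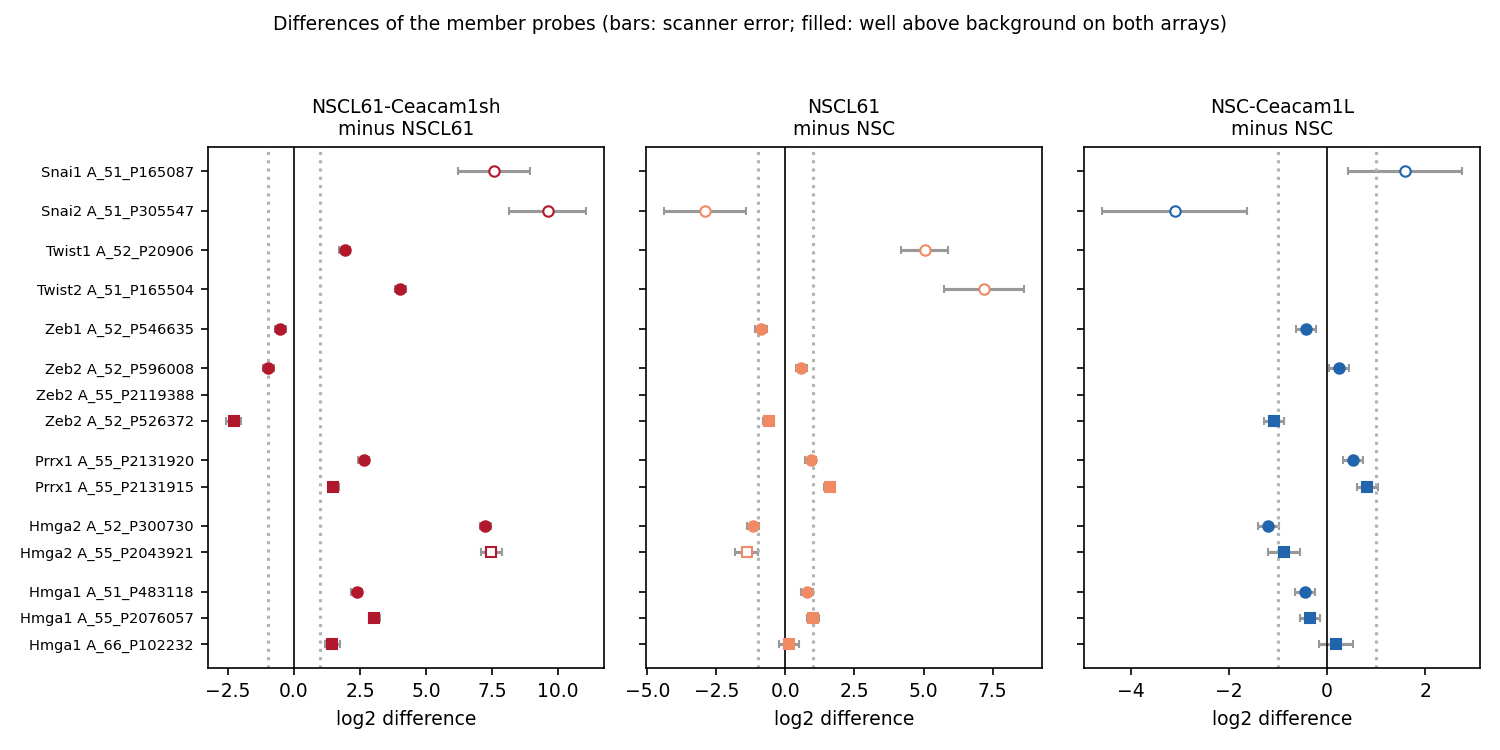
Log2 difference (horizontal axis) of each member probe in the 3 comparisons, with bars for the scanner's modelled error, filled where both arrays were well above background, and dotted lines at 2-fold. In NSCL61-Ceacam1sh minus NSCL61 every probe of Snai1, Snai2, Twist1, Twist2, Prrx1, Hmga2 and Hmga1 lies to the right of the 2-fold line and both plotted Zeb2 probes lie left of 0; the Zeb2 probe at background on all arrays has no point.

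Between NSCL61 and NSC, 2 of the 8 members evaluated were higher (Twist1 and Twist2) and 2 were lower (Snai2 and Hmga2), where 14.4% of all 15299 evaluated genes were higher and 14.0% were lower (28.4% in either direction). The members' median log2 difference was 0.68, against 0.03 over all evaluated genes. Between NSC-Ceacam1L and NSC, 1 of the 7 members evaluated counted as higher (Snai1) and 2 as lower (Snai2 and Hmga2), where 10.5% of all 15313 evaluated genes were higher and 6.05% were lower (16.5% in either direction). The members' median was -0.43, against -0.10 over all evaluated genes. In the last comparison Hmga2 was the only counted member that was well above background on both arrays.

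The genes whose profile over the 4 arrays was most like a member's were named by the smallest root mean square difference of centred log2 values, with values at background raised to the floor of their array. Only genes well above background on the member's brightest array were searched. The likeness rests on 4 arrays and is a description. For Snai1, Snai2, Twist1 and Twist2 part of it comes from values raised to the floor. Nearest to Hmga2 were Snai2 at 0.23, Timp1 at 0.25 and Clmp at 0.28. Nearest to Twist1 were Tbx15 (0.12), Pdlim7 (0.34) and Foxf2 (0.38), and nearest to Twist2 were Ccl7 (0.29) and Emp3 (0.81). Nearest to Snai1 were Prl3d1 (0.10), Crct1 (0.20) and Hpse (0.20), and nearest to Snai2 were Dynap and Ly6a, each at 0.16. Nearest to Prrx1 were Cnn2 (0.09), Chchd7 (0.12) and Trpv4 (0.12), and nearest to Hmga1 were Gm7271 (0.07), Klf2 (0.07) and Tph2 (0.09). Zeb1 and Zeb2 spanned 1.40 and 0.98 on the log2 scale, under the 2.0 set for this search.

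The list counts from here on stand beside the shares of all evaluated genes past 2-fold. These were 23.5% higher and 24.2% lower in NSCL61-Ceacam1sh against NSCL61. They were 14.4% and 14.0% in NSCL61 against NSC, and 10.5% and 6.05% in NSC-Ceacam1L against NSC. Among 15 other transcription factors linked to EMT, 6 of 13 evaluated were higher and 2 lower in NSCL61-Ceacam1sh than in NSCL61, with a median of 0.85. Fosl1, an AP-1 subunit, had 11.1 in NSCL61-Ceacam1sh and 0.293 in NSCL61 (log2 5.24 ± 0.21). Prrx2, the paralog of Prrx1, had 3.20 in NSCL61-Ceacam1sh and 0.177 in NSCL61 (log2 4.17 ± 0.22). The forkhead factor Foxq1 was at least 15.4-fold higher, the T-box factor Tbx2 was at least 12.6-fold lower and Sox4 was lower by log2 -2.35 ± 0.20. The list was therefore mixed in direction within this comparison.

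In NSCL61 against NSC, 5 of 11 evaluated genes of this list were higher and 1 was lower, with a median of 0.94. Tbx2 was at least 9.0-fold higher and Fosl1 at least 5.66-fold higher. Prrx2 had 0.177 in NSCL61 and 1.69 in NSC and was lower by log2 -3.25 ± 0.22, while both Prrx1 probes had positive differences there. In NSC-Ceacam1L against NSC, 2 of 8 were higher, Klf8 by at least 1.56-fold and Tbx2 by at least 1.00-fold, and 0 were lower, with a median of -0.11.

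Twist proteins act in dimers with E proteins, and Id proteins bind the E proteins without contacting DNA. Of 9 such genes, 7 were evaluated in each comparison. Over all evaluated genes, 47.7% passed 2-fold in either direction between the 2 NSCL61 arrays. Id1 had 15.9 in NSCL61-Ceacam1sh and 2.55 in NSCL61 and was higher by log2 2.64 ± 0.20, while Id2 (-2.45 ± 0.20) and the E protein Tcf12 (-1.58 ± 0.20) were lower, and the median was -0.48. Id4 was the 1 gene past 2-fold in the other 2 comparisons, higher by 1.35 ± 0.20 in NSCL61 than in NSC and by 2.78 ± 0.20 in NSC-Ceacam1L than in NSC, with list medians of 0.14 and -0.38. Id1 differed by -0.86 ± 0.20 and 0.56 ± 0.20 in these 2 comparisons.

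The epithelial genes that EMT factors are known to repress were mostly dim in these cells. Of 36, 12 were well above background in NSCL61-Ceacam1sh, 15 in NSCL61, 13 in NSC-Ceacam1L and 10 in NSC. Cdh1 had 0.0117 in NSCL61-Ceacam1sh, 0.0102 in NSCL61, 0.0504 in NSC-Ceacam1L and 0.0136 in NSC. It passed as well above background on the NSC-Ceacam1L array alone, with no bound on its fold, and Epcam, an epithelial surface marker, passed on none of the 4.

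In NSCL61-Ceacam1sh against NSCL61, 3 of 16 evaluated epithelial genes were higher and 6 were lower, with a median of -0.38. The tight junction gene Tjp3 had 0.0571 in NSCL61-Ceacam1sh and 2.28 in NSCL61 (log2 -5.32 ± 0.34), the tight junction gene Ocln was at least 2.13-fold lower and the grainyhead factor Grhl1 was lower by -1.94 ± 0.28. Krt19 was at least 12.5-fold higher, the polarity gene Llgl2 was higher by 3.12 ± 0.27 and the desmosomal gene Pkp2 by 3.09 ± 0.21. The 9 genes past 2-fold thus went both ways.

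Against NSC, 7 of 15 epithelial genes were higher in NSCL61 and 0 were lower, with a median of 0.62 (0.58 when each gene that only 1 of the 2 arrays detected enters at its bound). Tjp3 was higher by 2.04 ± 0.21, Ocln by at least 1.53-fold and the membrane protease gene St14 by at least 1.52-fold. Of the genes counted as higher, only Tjp3, Krt8 (1.48 ± 0.32) and Grhl1 (1.21 ± 0.25) were well above background on both arrays. The bounds of the others stay under 2-fold. In NSC-Ceacam1L against NSC, 4 of 15 were higher and 1 was lower, with a median of 0.47 (0.00 with bounds). Krt18 was at least 3.80-fold higher and its partner keratin Krt8 at least 2.29-fold lower, and the anchoring filament gene Lad1 counted as higher with 0.0459 in NSC-Ceacam1L and 0.0117 in NSC, where its fold has no bound.

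The mesenchymal genes of EMT were largely seen in all groups. Of 30, 25 were well above background in NSCL61-Ceacam1sh, 24 in NSCL61, 24 in NSC-Ceacam1L and 22 in NSC. In NSCL61-Ceacam1sh against NSCL61, 19 of 27 evaluated were higher and 4 were lower, with a median of 1.75. The proteoglycan gene Dcn was at least 248-fold higher and the receptor gene Pdgfrb at least 82.0-fold higher. Col3a1, a fibrillar collagen chain, had 2.77 in NSCL61-Ceacam1sh and 0.0729 in NSCL61 (log2 5.25 ± 0.29). The lower side held a gene of another collagen chain. Col5a2 was at least 61.7-fold lower, Thy1 at least 2.92-fold lower and the mesenchymal cadherin Cdh11 was lower by -1.33 ± 0.21.

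Cdh2 (N-cadherin) and Vim (vimentin), often used as EMT markers, are also known as genes of neural stem cells. Cdh2 had 35.0 in NSCL61-Ceacam1sh, 32.0 in NSCL61, 40.5 in NSC-Ceacam1L and 44.2 in NSC, with no difference past 2-fold. Its 4 levels were thus close to each other, while those of Vim were more spread. Vim had 280 in NSCL61-Ceacam1sh, 434 in NSCL61, 181 in NSC-Ceacam1L and 149 in NSC, higher in NSCL61 than in NSC by log2 1.54 ± 0.20. Its other differences were -0.63 ± 0.20 for NSCL61-Ceacam1sh minus NSCL61 and 0.28 ± 0.20 for NSC-Ceacam1L minus NSC. The fibronectin gene Fn1 had 68.7 in NSCL61-Ceacam1sh, 33.8 in NSCL61, 4.43 in NSC-Ceacam1L and 3.40 in NSC, and was higher by 1.02 ± 0.20 in NSCL61-Ceacam1sh than in NSCL61 and by 3.31 ± 0.20 in NSCL61 than in NSC. Both NSCL61 arrays were thus high in Fn1 and both NSC arrays low.

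Against NSC, 13 of 24 mesenchymal genes were higher in NSCL61 and 5 were lower, with a median of 1.48 (0.67 with bounds). The calcium binding protein gene S100a4 had 137 in NSCL61 and 0.242 in NSC (log2 9.15 ± 0.22), and Cdh11 was higher by 2.04 ± 0.21. Thy1 (-4.20 ± 0.24), the lysyl oxidase gene Loxl2 (-2.13 ± 0.21) and Col1a1 (-1.86 ± 0.36) were lower. Matrix genes stood on both sides. In NSC-Ceacam1L against NSC, 10 of 24 were higher and 2 lower, with a median of 0.42 (0.39 with bounds). Pdgfrb was at least 3.06-fold higher, Thy1 was higher by 2.71 ± 0.20, the smooth muscle actin gene Acta2 by 2.28 ± 0.20 and Cdh11 by 1.77 ± 0.21, while Tnc (-2.46 ± 0.21) and Loxl2 (-1.84 ± 0.21) were lower. Fn1 differed there by 0.38 ± 0.20 and Cdh2 by -0.12 ± 0.20.

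**Figure D3:**
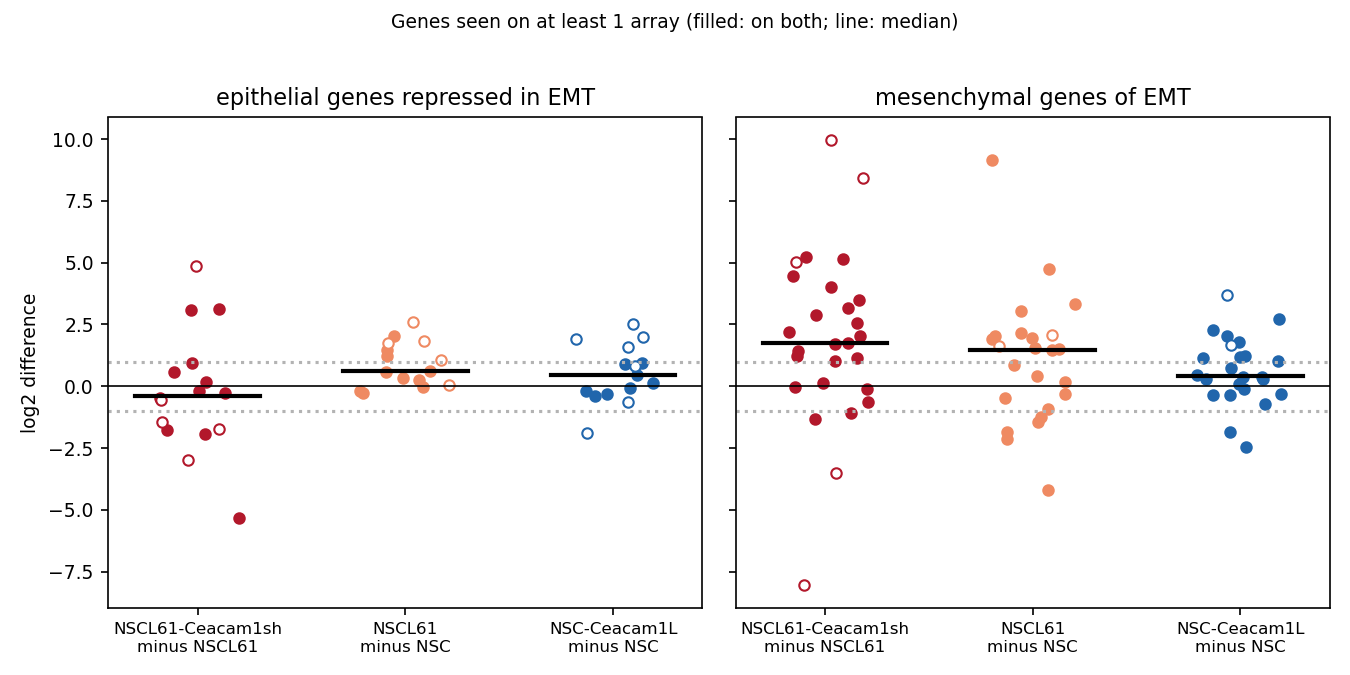
Log2 differences (vertical axis) of the evaluated epithelial genes (left panel) and mesenchymal genes (right panel) in the 3 comparisons, filled where both arrays were well above background, with a black line at the median and dotted lines at 2-fold. The mesenchymal medians are 1.75, 1.48 and 0.42 and the epithelial ones -0.38, 0.62 and 0.47, from left to right, with points on both sides of 0 in each column.

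Snail and Zeb proteins repress through chromatin enzymes. Of 19 co-repressor genes, all seen on every array, 6 were higher and 0 lower in NSCL61-Ceacam1sh than in NSCL61 (median 0.60), 0 were higher and 3 lower in NSCL61 than in NSC (median -0.19), and 0 passed 2-fold in either direction between NSC-Ceacam1L and NSC (median -0.34). Over all evaluated genes, 47.7%, 28.4% and 16.5% passed 2-fold in either direction in these comparisons. The histone methyltransferase gene Suv39h1 had 3.38 in NSCL61-Ceacam1sh, 0.841 in NSCL61, 1.36 in NSC-Ceacam1L and 2.31 in NSC. It was higher by 2.01 ± 0.20 in NSCL61-Ceacam1sh than in NSCL61 and lower by -1.46 ± 0.20 in NSCL61 than in NSC. The LIM adaptor gene Ajuba (1.66 ± 0.20) and Rcor1 (1.32 ± 0.20) were also higher in NSCL61-Ceacam1sh, and Ezh2 (-1.07 ± 0.20) and Prmt5 (-1.06 ± 0.20) were lower in NSCL61 than in NSC.

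Of 13 genes that control the stability of Snail and related proteins, 2 were higher and 3 lower in NSCL61-Ceacam1sh than in NSCL61, with a median of -0.43. Over all evaluated genes, 47.7% passed 2-fold there in either direction. The ubiquitin ligase genes Fbxl5 (1.48 ± 0.20) and Fbxl14 (1.44 ± 0.20) were higher. Axin2, a Wnt target (-3.56 ± 0.27), the ubiquitin ligase gene Btrc (-1.99 ± 0.21) and the phosphatase gene Ctdsp2 (-1.04 ± 0.20) were lower. Ctdsp2 was also the 1 gene past 2-fold in NSCL61 against NSC, higher by 1.12 ± 0.20 (list median 0.51), and 0 passed in NSC-Ceacam1L against NSC (list median 0.04).

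Around Hmga2, 18 genes of the Lin28 and let-7 pathway and of its known targets were read. In NSCL61-Ceacam1sh against NSCL61, 7 of 17 evaluated were higher and 4 lower, with a median of -0.04. Lin28b, which blocks let-7 maturation, had 0.315 in NSCL61-Ceacam1sh, 0.00997 in NSCL61, 0.00845 in NSC-Ceacam1L and 0.0127 in NSC. It was well above background on the NSCL61-Ceacam1sh array alone and at least 7.90-fold higher there than in NSCL61. Its paralog Lin28a was well above background on all 4 arrays at similar levels. Lin28a had 0.393 in NSCL61-Ceacam1sh, 0.495 in NSCL61, 0.402 in NSC-Ceacam1L and 0.417 in NSC.

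The Igf2bp genes encode RNA-binding proteins, and let-7 targets are known among them. Igf2bp1 had 6.03 in NSCL61-Ceacam1sh, 0.0494 in NSCL61, 0.00905 in NSC-Ceacam1L and 0.0133 in NSC, was seen in NSCL61-Ceacam1sh alone, and was at least 122-fold higher there than in NSCL61. That fold is the measured ratio, as the NSCL61 value lay above the lowest signal well above background on that array. Igf2bp2, which Hmga2 is known to activate, had 8.62 in NSCL61-Ceacam1sh, 3.70 in NSCL61, 2.39 in NSC-Ceacam1L and 3.23 in NSC, higher by 1.22 ± 0.20 in NSCL61-Ceacam1sh than in NSCL61. Igf2bp3 had 0.702 in NSCL61-Ceacam1sh, 0.195 in NSCL61, 0.681 in NSC-Ceacam1L and 0.544 in NSC. NSCL61 was its low array, with differences of 1.85 ± 0.22 in NSCL61-Ceacam1sh relative to it and of -1.48 ± 0.22 in NSCL61 relative to NSC. Of the 3, Igf2bp1 was thus seen on the same single array as Lin28b, and the other 2 were seen on all arrays.

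The imprinted neighbours H19 and Igf2 had differences opposite in sign to those of Hmga2 in the 2 comparisons that include NSCL61. Between NSC-Ceacam1L and NSC, H19 differed by -0.57 ± 0.20, the same sign as Hmga2, and Igf2 was at background on both arrays. H19, a noncoding RNA, had 0.0364 in NSCL61-Ceacam1sh, 38.4 in NSCL61, 1.62 in NSC-Ceacam1L and 2.40 in NSC, at least 1033-fold lower in NSCL61-Ceacam1sh than in NSCL61. Igf2 was at least 7.91-fold lower in NSCL61-Ceacam1sh than in NSCL61 and at least 5.67-fold higher in NSCL61 than in NSC. H19 was higher by 4.0 ± 0.20 in NSCL61 than in NSC, so NSCL61 was the high array for both. Relative to NSC, NSCL61 had 4 of 15 genes of the list past 2-fold upward, the nuclear receptor gene Nr6a1 (at least 1.25-fold) included, and 1 downward, at a median of -0.20. In NSC-Ceacam1L against NSC, 0 of 13 passed 2-fold (median -0.31), and Igdcc3, a receptor gene of the immunoglobulin family, was lower in NSCL61-Ceacam1sh than in NSCL61 by -1.09 ± 0.21.

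**Figure D4:**
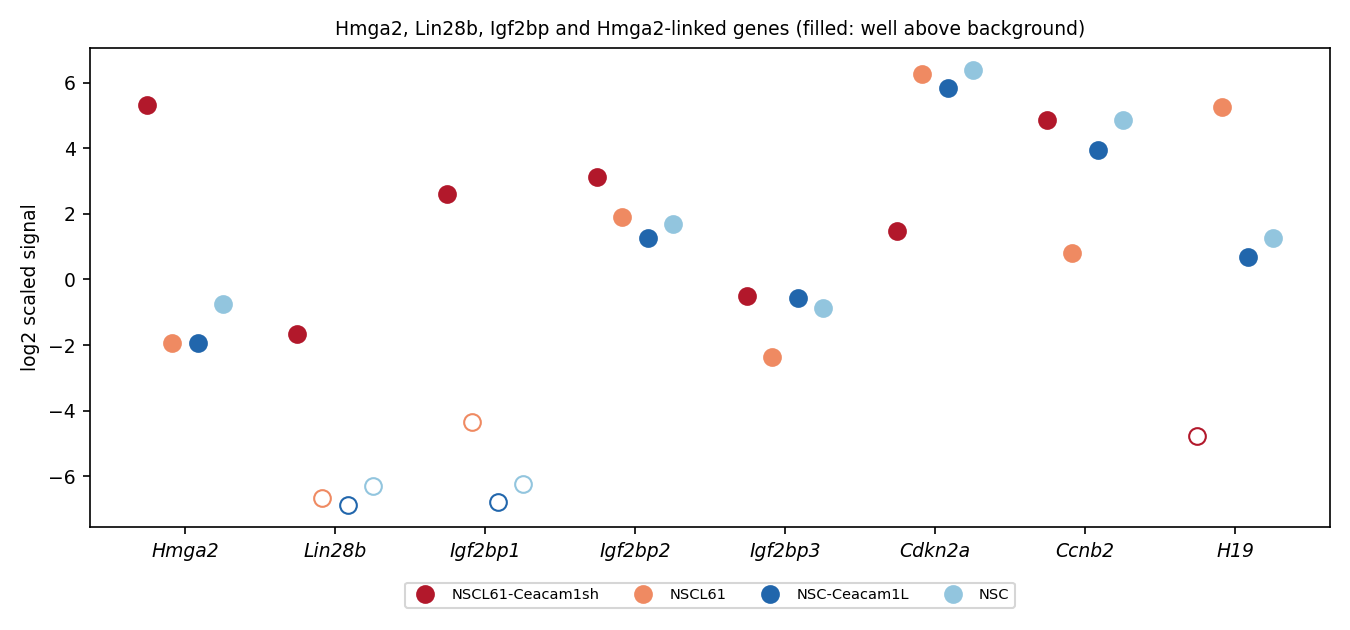
Log2 scaled signal (vertical axis) of Hmga2 and 7 genes linked to it on the 4 arrays, filled where well above background. Hmga2, Lin28b and Igf2bp1 are highest on the NSCL61-Ceacam1sh array and Cdkn2a and H19 are lowest there; levels of different genes are read by different probes and are not comparable with each other.

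Hmga2 is known to lower the Cdkn2a locus through Junb in neural stem cells and to raise cyclin genes. Of 6 such genes, 3 were higher and 2 lower in NSCL61-Ceacam1sh than in NSCL61 (median 0.78). Cdkn2a, which encodes p16Ink4a and p19Arf, had 2.77 in NSCL61-Ceacam1sh, 76.7 in NSCL61, 57.5 in NSC-Ceacam1L and 84.2 in NSC, a difference of -4.79 ± 0.20 between the 2 NSCL61 arrays. Its differences of -0.13 ± 0.20 for NSCL61 minus NSC and -0.55 ± 0.20 for NSC-Ceacam1L minus NSC did not reach 2-fold. The neighbouring inhibitor gene Cdkn2b had 0.326 in NSCL61-Ceacam1sh, 0.958 in NSCL61, 6.50 in NSC-Ceacam1L and 7.56 in NSC. It was lower by -1.55 ± 0.21 in NSCL61-Ceacam1sh than in NSCL61 and by -2.98 ± 0.20 in NSCL61 than in NSC, where Hmga2 was itself lower.

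The mitotic cyclin genes had their lowest level in NSCL61. Ccnb2 had 29.2 in NSCL61-Ceacam1sh, 1.75 in NSCL61, 15.5 in NSC-Ceacam1L and 28.7 in NSC, higher by 4.06 ± 0.20 in NSCL61-Ceacam1sh than in NSCL61 and lower in NSCL61 than in NSC (-4.04 ± 0.20). Ccna2 had 26.4 in NSCL61-Ceacam1sh, 4.13 in NSCL61, 10.3 in NSC-Ceacam1L and 23.1 in NSC. Its differences were 2.68 ± 0.20, -2.48 ± 0.20 and -1.16 ± 0.20 for the 3 comparisons in the order used here. Junb had 1.34 in NSCL61-Ceacam1sh, 1.06 in NSCL61, 1.33 in NSC-Ceacam1L and 0.342 in NSC. It was not lower in NSCL61-Ceacam1sh than in NSCL61 and did not reach 2-fold there. Junb was higher by 1.63 ± 0.21 in NSCL61 than in NSC and by 1.96 ± 0.21 in NSC-Ceacam1L than in NSC. The list medians were -1.31 in NSCL61 against NSC, with 1 of 6 higher and 3 lower, and -0.49 in NSC-Ceacam1L against NSC, with 1 higher and 1 lower.

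Other high mobility group proteins were seen on all 4 arrays. Of 7, 2 were higher and 0 lower in NSCL61-Ceacam1sh than in NSCL61 (Hmgb2 1.61 ± 0.20, Hmgn5 1.02 ± 0.20, median 0.73). In NSCL61 against NSC 0 were higher and 3 lower (Hmgn2 -1.67 ± 0.20, Hmgb2 -1.49 ± 0.20, Hmgn5 -1.39 ± 0.20, median -0.88). In NSC-Ceacam1L against NSC 0 were higher and 3 lower as well (Hmgb1 -1.27 ± 0.20, Hmgb2 -1.22 ± 0.20, Hmgn5 -1.01 ± 0.20, median -0.82). The nucleosome-binding genes thus moved by a few fold at most, beside 152-fold for Hmga2 between the 2 NSCL61 arrays.

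Lists of cell type markers went different ways in NSCL61-Ceacam1sh against NSCL61, where 47.7% of all evaluated genes passed 2-fold in either direction. Of 15 neural stem cell markers, 13 were well above background in NSCL61-Ceacam1sh, 14 in NSCL61, 15 in NSC-Ceacam1L and 15 in NSC, with summed scaled signals of 323, 983, 758 and 933 on these arrays. Vim, also in the mesenchymal list, was the largest part of the sum in NSCL61-Ceacam1sh (280) and NSCL61 (434). In NSC-Ceacam1L (336) and NSC (477) the largest part was Fabp7. Against NSCL61, 1 marker was higher in NSCL61-Ceacam1sh (Prom1, at least 5.15-fold) and 10 were lower, with a median of -1.76. The lower genes include glial and neural progenitor genes that were well above background on the other 3 arrays. Fabp7, a radial glial lipid carrier, had 0.0625 in NSCL61-Ceacam1sh and 330 in NSCL61 (log2 -12.37 ± 0.31), the Notch target Hes5 was at least 1728-fold lower and Olig2 at least 420-fold lower. Sox2 stayed well above background on all 4 arrays, with 5.13 in NSCL61-Ceacam1sh, 17.3 in NSCL61, 14.2 in NSC-Ceacam1L and 11.7 in NSC.

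Of 14 fibroblast markers, 10 were well above background in NSCL61-Ceacam1sh, 8 in NSCL61, 7 in NSC-Ceacam1L and 6 in NSC, with sums of 69.5, 5.54, 66.3 and 126. Fbln2 was the largest part of each sum except that of NSCL61, with 32.8 in NSCL61-Ceacam1sh, 1.70 in NSCL61, 44.7 in NSC-Ceacam1L and 118 in NSC. In NSCL61-Ceacam1sh against NSCL61, 9 were higher and 1 lower (median 4.48), led by Dcn, Pdgfrb and Mgp (7.83 ± 0.32), while Lum, Postn and Fap were at background on all 4 arrays and Thy1 was lower. Several of these genes also stand in the mesenchymal list above. Of 9 mesothelial markers 3, 2, 1 and 1 were seen in the same order of arrays, with sums of 84.3, 0.571, 0.324 and 0.225. Msln made up nearly all of the first sum with 83.6 (8.32 ± 0.23 above NSCL61), while Wt1, Upk3b and Upk1b were at background on every array.

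Of 9 neural crest markers 4, 5, 5 and 4 were seen, with sums of 19.1, 5.95, 3.61 and 3.32, and Pax3 was higher by 7.69 ± 0.29 in NSCL61-Ceacam1sh than in NSCL61 while Sox10 was lower by -1.90 ± 0.22 and Foxd3 was at background. The next 2 lists had genes on either side of background. Of 11 endothelial and pericyte markers 2, 5, 3 and 3 were seen, with sums of 8.70, 14.3, 10.3 and 13.1, most of it Kdr (8.44 in NSCL61-Ceacam1sh and 13.6 in NSCL61), and Cldn5, Tek and Tie1 were at background on every array. Of 10 microglia and macrophage markers 5, 5, 3 and 3 were seen, with sums of 15.5, 28.5, 26.9 and 21.7, most of it Itgam and Csf1r, and Ptprc and Aif1 were at background on every array. Against NSCL61, 2 of 5 evaluated neural crest markers were higher in NSCL61-Ceacam1sh and 2 were lower. Of 5 evaluated endothelial and pericyte markers, 0 were higher and 3 lower there. In the same comparison 2 of 6 evaluated microglia and macrophage markers were higher in NSCL61-Ceacam1sh and 3 were lower. Tmem119 had 2.57 in NSCL61-Ceacam1sh and 0.0703 in NSCL61 (log2 5.19 ± 0.29), Trem2 was at least 1.82-fold higher, and Cx3cr1 (at least 3.78-fold), Itgam (-1.27 ± 0.20) and Cd68 (-1.26 ± 0.21) were lower. In total RNA, a change in which cells are present and a change in RNA per cell cannot be told apart, and the part of other cell types in the member differences was not tested.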

How the data were processed

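Total RNA of 4 groups, taken from the sample titles, was labelled with Cy3 and hybridised to 1 array each. The deposited scanner files hold 62976 spots an array, of which 59305 are not controls, with intensity values made by the authors: processed signal, background-subtracted, with a modelled error, from Agilent Feature Extraction 10.7.3.1 (protocol GE1_107_Sep09, probe positions on mm9), per the file headers. Version 9.1 of that software stands in the submitters' processing notes. The NSC file had been saved again with at most 3 significant digits, so names came from the NSCL61 file. Flags for outliers and for signal well above background were used as deposited. A further deposited table holds the authors' processed values in log2: its differences between arrays had slopes of 0.9997 to 0.9999 against those of the scanner signals, which settles scale and direction, while the centring stays unknown (column medians 0.03 for NSCL61-Ceacam1sh, 0.00 for NSCL61, -0.20 for NSC-Ceacam1L and 0.25 for NSC). It served as an alternative.

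The processed signal was divided by the array's 75th percentile (541 in NSCL61-Ceacam1sh, 439 in NSCL61, 571 in NSC-Ceacam1L and 480.0 in NSC) and taken to log2. Outlier spots (143 to 187 an array) were left out, 0 spots were saturated, and repeated spots of 1 probe entered as their mean. The median modelled error was 0.145 to 0.146 on the log2 scale. The number of arrays limits the precision. A probe passed as well above background when at least 50% of its spots did. Of 55681 probes, 27325 were named by accession and 3523 by symbol in the RefSeq table of GRCm38.p6, 551 by an older symbol, and 24282 stayed unnamed. The brightest probe over the 4 arrays stands for a gene (7025 genes have several).

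The named genes are the members, the 3 genes most alike each member with a range of at least 2.0, the 3 largest differences each way per list, and a few set markers. A few genes that this rule names are not reported here. Members and lists were chosen with earlier results of these data known. Alternatives were quantile, cyclic loess, median and spike-in scaling, normexp with an offset of 50, the deposited table, other filters, the mean of probes and a 1.5-fold threshold. The count of calls was tested on simulated data. Changes were put only into bright genes, with scanner error as noise, so dim members and spread between arrays are not covered. Python 3.11.15, pandas 2.3.3, numpy 2.4.6, matplotlib 3.10.9, R 4.3.3 and limma 3.58.1 (normalization only) were used.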

Additional observations from a re-analysis of the deposited data

How the results depend on the processing

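Of 189 member differences under these alternatives, 137 moved by less than the scanner error, 52 moved by more and 0 differences past 2-fold changed sign. In NSCL61-Ceacam1sh against NSCL61, 7 members were higher in each setting but one, which required both arrays well above background and left 5 (without Snai1 and Snai2). There 1 member, Zeb2, was lower under quantile, cyclic loess and the 1.5-fold threshold, against 0. The Hmga2 difference ran from 6.71 to 7.71. In NSCL61 against NSC, 0 members were higher with both arrays required and 4 at 1.5-fold, against 2, and 0 were lower under normexp, 1 with both arrays required and 1 with bounds, against 2. With the mean of probes 3 were higher there, with Prrx1 added. Under spike-in scaling and at 1.5-fold 3 were lower, with Zeb1 added. In NSC-Ceacam1L against NSC, 0 were higher under normexp, with both arrays required and with bounds, against 1, and 0 were lower under normexp and 1 under spike-in scaling, with both arrays required and with bounds, against 2. Without the filter on dim probes 3 were lower in this comparison, with Twist1 added. The Hmga2 difference there ran from -1.23 to -0.79. Counting by bounds was chosen after seeing the data. Fewer genes were tested where both arrays were required, and more without the filter. By their rules, a 1.5-fold threshold can only add calls and bounds can only remove them. For the other settings the cause was not tested. Over all genes, 1602 were higher and 926 lower in NSC-Ceacam1L than in NSC. Higher counts became 2617 under spike-in scaling, 741 under normexp, 889 with both arrays required and 2623 at 1.5-fold, and lower counts became 611 with cyclic loess, 441 with spike-ins, 523 under normexp, 1476 without the filter and 2575 at 1.5-fold. In NSCL61 against NSC, 2199 higher became 1376 under normexp, 1396 with both arrays required and 3572 at 1.5-fold, and 2140 lower became 1391 under normexp and 3349 at 1.5-fold. In NSCL61-Ceacam1sh against NSCL61, 3784 lower became 2359 with both arrays required. Of the calls in NSC-Ceacam1L against NSC, 63.4% were higher, and 76.7% with cyclic loess, 85.6% with spike-in scaling and 50.5% at 1.5-fold. This was 49.2% in NSCL61-Ceacam1sh against NSCL61, 64.4% under median and 65.7% under spike-in scaling, and 50.7% in NSCL61 against NSC, 40.1% under spike-in scaling. Spike-in scaling shifted the median of all genes by 0.46, -0.22 and 0.41 in NSCL61-Ceacam1sh against NSCL61, NSCL61 against NSC and NSC-Ceacam1L against NSC, median scaling by 0.41 in the first, and quantile and cyclic loess by 0.13 and 0.23 in the last. Dim signals limit Snai1, Snai2 and, in the NSC arrays, Twist1 and Twist2. No paired analysis was possible because each group had 1 array.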
